A study of Zea mays with 42 samples.

Results

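Endosperm-restricted probe sets are described here: 144 of the 17555 maize probe sets on the array (17734 probe sets in all). Their signal was high in at least 1 endosperm stage and low beside it in 8 other tissues. A probe set was taken as a member when its highest mean over the 4 endosperm stages reached at least 200 and was at least 8 times its highest mean over 8 other tissues, with means under 100 counted as 100. These 8 tissues were root, stem, stem tip, leaf, silk, ear and embryos at 20 and 25 days after pollination (DAP). Another 22 probe sets passed the same limits but belong to the zein genes z1, gz and dzs, to sh2, wx1, o2, PBF and fie1, or to the transfer layer gene family betl, and were left out by name. The limit of 300 members was not reached. The members were thus chosen on their measured signals, so their height in endosperm over those 8 tissues is a description and was not tested. Embryos at 10 and 15 DAP took no part in the choice.

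The endosperm of a cereal grain is a storage tissue: its starchy cells fill with starch and with storage proteins packed into protein bodies, and the embryo draws on both at germination. Sugars and amino acids enter from the mother plant through the basal endosperm transfer layer, a sheet of cells with ingrown walls at the base of the grain, while an outer layer, the aleurone, later secretes enzymes. Many genes of these cells are used in the endosperm and hardly anywhere else in the plant, and mutants such as brittle, shrunken and sugary are named for the collapsed or sweet kernels they give.

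All plants were of the maize inbred line B73 and untreated, and the 42 Affymetrix arrays come from 14 tissues with 3 biological replicates of each. Beside the 6 vegetative and floral tissues named above, endosperm and embryo were each sampled at 4 ages, 10, 15, 20 and 25 DAP. The authors' MAS5 signals, a linear intensity for each probe set, are printed as such, and differences are given as log2 folds from a limma fit over all arrays. A change was called where the fold was at least 2 and the p, adjusted over 17621 probe sets (controls left out), was under 0.05. An array is called below by the number of its biological replicate. How embryos and endosperm were taken apart is not given in the sources used here.

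The labelled tissues were checked against marker genes. The summed signal of 15 zein probe sets, marks of starchy endosperm, lay between 126143 and 247227 on the endosperm arrays, against 3359 to 5942 on embryo arrays at 20 and 25 DAP. The summed signal of 9 embryo probe sets (globulins glb1 and glb2, oleosin ole1, EMB5 and vp1) lay between 27436 and 78373 on embryo arrays and between 2315 and 9366 on endosperm arrays up to 20 DAP, but between 16004 and 18057 on the 3 endosperm arrays at 25 DAP. No probe set of either list had a signal of 0 on any array. Zein signal was uneven between embryo arrays of the same age: 24076 to 69397 at 10 DAP, and 4510, 4772 and 57557 at 15 DAP, the last on replicate 2. Root replicate 1, stem replicate 2 and ear replicate 3 correlated least with their own tissue (mean r 0.930, 0.963 and 0.973). Without these 3 arrays 145 probe sets passed the limits, 142 of them members.

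**Figure D1:**
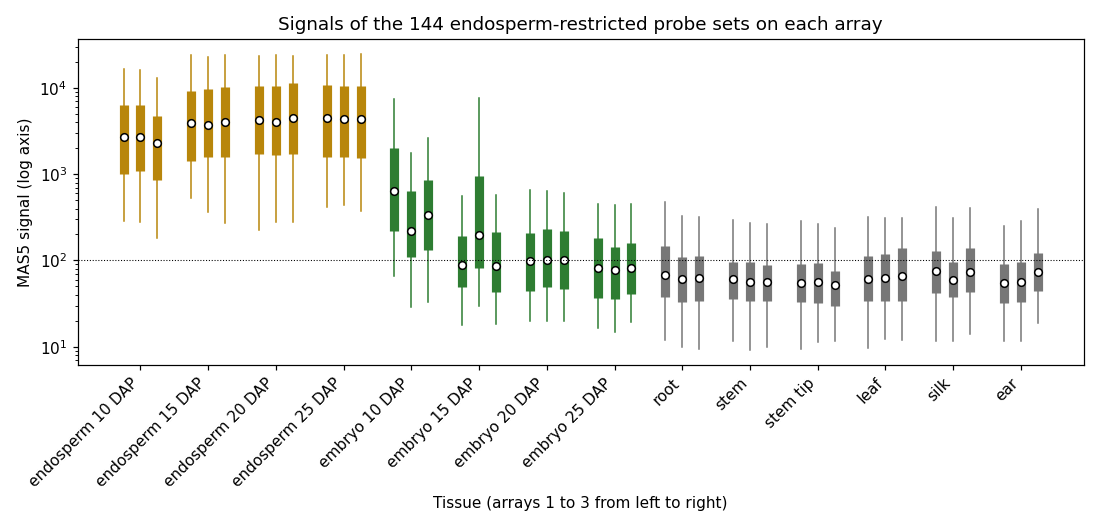
Signal of the 144 members on each of the 42 arrays (log axis), with the median as a circle, the middle 50% as a thick bar and the 5th to 95th percentile as a thin line; the dotted line marks a signal of 100. The medians of the endosperm means lie at 2566 to 4311, those of the non-seed tissues at 55.0 to 69.3, and the 10 and 15 DAP embryo arrays lie between and differ among themselves.

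The members were bright, which follows in part from the choice. A ratio of at least 8 to means counted as at least 100 needs a bright endosperm stage. The highest endosperm mean of the members ranged from 835 to 28075 with a median of 5145. It reached 1000 in 137 members, 10000 in 42 and 20000 in 18. The ratio to the highest of the 8 other tissues ranged from 8.17 to 205.6 with a median of 23.2, reached 100 in 12 members and stayed under 16 in 43. In 51 members all 8 other means lay under 100. The other tissue with the highest mean was the 20 DAP embryo for 54 members, silk for 21, the 25 DAP embryo for 20, root for 17 and leaf for 16. In 131 members every endosperm array lay above every array of these 8 tissues, which largely follows from the choice on these same arrays. Each array holds the RNA of a whole tissue, in which fewer cells of a type and less RNA per cell cannot be told apart.

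Only 23 members carry a gene name, for 20 genes, and 118 have no gene at all in the tables used. The platform table names a gene for 8.27% of the maize probe sets. The 144 members fall into 111 design clusters, the groups of transcripts from which probe sets were built, and 23 clusters hold more than 1 member. Probe sets with the suffix x or s, which marks probes that may also read related genes, made up 32 members (22.2%), against 5.37% of all maize probe sets. In addition, 10 members share a cluster number with a zein probe set that was left out. The member with the largest ratio, 205.6, was Zm.4357.2.S1_x_at, whose cluster also holds the left-out zein z1C1_20; its signals were 8779.8, 7416 and 3386 in endosperm at 10 DAP and 20100.1, 20455 and 21118 at 25 DAP. The 3 arrays at each age do not overlap with those of the other. Unnamed probe sets followed, Zm.15735.1.A1_at with a ratio of 180.2 and Zm.33.1.S1_s_at with 178.5.

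The large unnamed clusters were bright. The cluster Zm.2517 holds 5 members, all highest at 25 DAP, and includes the brightest of all, Zm.2517.5.A1_x_at, whose means were 16637 at 10 DAP and 28075 at 25 DAP. Its sister Zm.2517.3.A1_at had the largest ratio of the cluster (134.5) at lower means of 3196 and 13624. The cluster Zm.13345 also holds 5 members, all with the suffix x and all highest at 25 DAP, with ratios from 21.4 (Zm.13345.2.A1_x_at) to 113.1 (Zm.13345.6.A1_x_at). The cluster Zm.10817, whose number is shared with the zein z1C1_4, holds 4 members, none of which had an endosperm step called: Zm.10817.5.A1_x_at stood at 6471 at 10 DAP and 15781 at 25 DAP, and Zm.10817.7.S1_s_at was highest at 10 DAP (2909) and lowest at 25 DAP (745). The difference between these probe sets was not tested, and the last was named after its values were seen. A missing call need not mean a flat course. The 10 and 15 DAP endosperm arrays of Zm.10817.5.A1_x_at do not overlap (log2 fold 1.04 ± 0.70 SE). This SE rests on the spread within all tissues, among them the uneven young embryos. In the cluster Zm.2517 2 members rose from 10 to 15 DAP and in Zm.13345 1 did, and no later step was called in either. The 3 members of cluster Zm.33 were all highest at 25 DAP, with means from 11037 to 17846.

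Storage proteins and their companions were among the brightest named members. The gene bz15 encodes the 15 kDa beta-zein, a sulfur-rich protein of protein bodies, and its endosperm means were 17015, 23785, 23799 and 23608 at 10, 15, 20 and 25 DAP. The legumin leg1, a storage protein of the type known from legume seeds, stood at 13335, 13898 and 13069 on the 10 DAP endosperm arrays and at 13899, 14295 and 14091 at 25 DAP, and its highest and lowest stage means differed 1.17-fold. Its highest mean in any of the 8 other tissues was 150.2. The globulin gene glb3 rose from 8260.1, 7497 and 6677 at 10 DAP to 16006, 16243 and 16994 at 15 DAP (log2 fold 1.14 ± 0.43 SE, adjusted p = 0.0354), and the arrays of the 2 ages do not overlap. This call was lost in each of the 6 fits that left out an array of these ages (adjusted p 0.0538 to 0.0973) and under quantile, median and hybridization-control scaling. The inhibitor gene hag, whose protein blocks trypsin and the clotting factor XIIa, stood between 16879 at 10 DAP and 22613 at 20 DAP. No endosperm step of leg1, bz15 or hag was called. These 4 genes are the members on the list of 7 storage protein probe sets, of which 1 rose at each endosperm step (beside 6.76%, 0.919% and 3.96% of all probe sets) and none fell, and whose other sets belong to the embryo globulins glb1 and glb2.

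Of the starch and sugar list of 32 probe sets, 5 are members by 1 probe set each: bt1, bt2, sugary2, sh1 and ae1. The product of bt1 carries ADP-glucose into the amyloplast and bt2 encodes the small subunit of the enzyme that makes ADP-glucose. Endosperm signals of bt1 were 6513, 6301 and 6191 at 10 DAP, 8609, 9403 and 10242 at 15 DAP, 9307, 9190.0 and 9260.0 at 20 DAP and 6565, 6367 and 6577 at 25 DAP, a broad plateau with no step called. Those of bt2 followed the same outline, with means of 7293, 11594, 11161 and 9041, also without a call. The sucrose synthase gene sh1, whose enzyme splits sucrose at the start of the path to starch, rose from 1689, 1787 and 1623 to 3073, 3285 and 7851 between 10 and 15 DAP (log2 fold 1.34 ± 0.50 SE, adjusted p = 0.0336). The 3 arrays at 15 DAP all exceed those at 10 DAP, with the highest signal on array 3, and without that array the log2 fold was 0.90 with an adjusted p of 0.216 (limma). The call was also lost without each of the 10 DAP arrays (adjusted p 0.0638 to 0.0785) and under quantile, median and hybridization-control scaling (0.0505 to 0.189). Of the other sh1 probe sets, Zm.6977.5.A1_at also rose and Zm.6977.1.S1_at had no call. The branching enzyme gene ae1, which stands just inside the limit with a ratio of 8.17, varied between 2447 and 3409 and had no step called. Both other ae1 probe sets had ratios of 3.33 and 1.00. Over the whole list, 5 of 32 probe sets rose and 3 fell from 10 to 15 DAP, beside 6.76% and 5.36% of all probe sets, 0 were called from 15 to 20 DAP by limma and 2 rose and 1 fell from 20 to 25 DAP, beside 3.96% and 0.448%. The list includes 3 probe sets of sh2 and wx1 that were left out by name.

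Regulators and other named genes showed plateaus or single steps. The NAC transcription factor nac4 had endosperm means of 6624, 9689.6, 11312 and 9926, against at most 249.5 in the 8 other tissues. The auxin gene yuc encodes a flavin monooxygenase of auxin synthesis and stood at 5872, 6473 and 6708 at 10 DAP and 8547, 8889 and 8293 at 20 DAP, with no step called. Scl1, a scarecrow-like gene by its symbol, stood at 3481, 3795 and 3518 at 20 DAP and 6672, 7131 and 6744 at 25 DAP, a difference of 0.93 on the log2 scale with an adjusted p of 0.026 that stayed under the fold limit. Bk2L6, a relative of the cell wall gene brittle stalk2, rose from 359.7, 324 and 437 to 1325, 1861 and 1856 between 10 and 15 DAP (log2 fold 2.16 ± 0.20 SE, adjusted p = 1.83e-10), and its arrays at these ages do not overlap. Both probe sets of the pyruvate decarboxylase gene pdc2, an enzyme of alcoholic fermentation, are members and rose from 10 to 15 DAP (1.49 and 1.65 on the log2 scale), and the brighter had means of 1960.3, 5537, 6432 and 4989. Zm.34.4.A1_x_at, named ubc7 (a ubiquitin-conjugating enzyme) in the platform table, shares its cluster number with the zein gz27 and carries the suffix x, and the gene it reads is uncertain. Its means were 7921, 13183, 13879.6 and 12926. Both probe sets of x34.3 are members with no step called, at means of 2638 and 728 at 10 DAP and of 5081 and 1134 at 25 DAP. Of the 17 probe sets on the list of endosperm transcription factors, nac4 and Scl1 are the only members, and 3 sets of o2 and PBF were left out by name. On that list 2 sets, both of o2, rose from 10 to 15 DAP (6.76% of all probe sets) and had no later call.

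The highest mean lay at 10 DAP in 33 members, at 15 DAP in 17, at 20 DAP in 41 and at 25 DAP in 53. This order depended on the scaling of the arrays: with the same median on all arrays 46 members were highest at 15 DAP and 29 at 25 DAP. In 54 members the highest and lowest stage mean differed by less than 2-fold, and in 14 they differed at least 10-fold. At least 1 step between neighbouring stages was called in 64 members and none in 80, counts that describe the members and are not set against all probe sets.

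From 10 to 15 DAP, 48 members rose, beside 6.76% of all probe sets, and 14 fell, beside 5.36%. With arrays centred on their hybridization controls, which were brighter on the later endosperm arrays, the split was 31 higher and 21 lower, and the median of all probe sets moved from 0.12 to -0.26 on the log2 scale. From 15 to 20 DAP, 4 members rose (0.919% of all probe sets) and 3 fell (0.647%). From 20 to 25 DAP, 9 rose (3.96%) and 2 fell (0.448%). The median log2 fold of the members over these 3 steps was 0.67, 0.05 and 0.00, beside 0.12, 0.07 and -0.00 for all probe sets. Since the highest endosperm mean entered the choice, nothing is read from these counts against the background. The 43 members that rose from 10 to 15 DAP and then had no further call were the most common of the changing courses.

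Large early rises were seen in unnamed members. ZmAffx.142.1.A1_at stood at 116, 104 and 89.6 at 10 DAP and 1283, 1887 and 1985 at 15 DAP (log2 fold 4.04 ± 0.19 SE, adjusted p = 3.98e-17). Zm.15604.1.S1_at stood at 301, 1108 and 50.6 at 10 DAP, a wide spread, and at 4909, 3322 and 3258 at 15 DAP (log2 fold 3.87 ± 0.80 SE, adjusted p = 0.000193). The arrays of the 2 ages do not overlap for either. Zm.14951.1.S1_a_at rose 10.3-fold and Zm.33.1.S1_at 10.5-fold over the same days.

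Later rises were fewer. Both members of cluster Zm.161 rose from 10 to 15 DAP and again from 15 to 20 DAP: Zm.161.3.S1_x_at stood at 198, 161 and 50.01, then 863, 730.0 and 515, then 5233, 5891 and 5827 (log2 fold 3.04 ± 0.32 SE, adjusted p = 6.77e-08 for the second step). At 25 DAP it reached 9072, 9079 and 8914, a further difference that was not called. Only Zm.10195.1.A1_at rose at all 3 steps, with signals of 28.1, 37.7 and 24.8 at 10 DAP, 133, 131 and 155 at 15 DAP, 324, 329 and 357 at 20 DAP and 1346, 1393 and 1505 at 25 DAP. Its first step was called on signals near the limit of 100, and with signals under 100 counted as 100 it was not called.

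Some members were highest early. Zm.13101.1.A1_at stood at 1609, 1789 and 2621 at 10 DAP and at 55.7, 31.2 and 34.1 at 15 DAP (log2 fold -5.65 ± 0.24 SE, adjusted p = 1.19e-17), a fall of at least 19.6-fold when signals under 100 count as 100. Zm.18272.1.A1_at fell from 622, 925 and 1152 to 32.2, 26.8 and 31.0 over the same days, at least 8.72-fold on that scale. Both stayed under 50 on every later endosperm array. Zm.13985.1.A1_at fell from 4188, 4484 and 4233 to 2086, 1409.7 and 1479.8 (log2 fold -1.40 ± 0.21 SE, adjusted p = 1.45e-06), again without overlap. Zm.6087.1.A1_at declined in steps, with means of 2139, 812, 324 and 163, of which the first and second were called. The pair of probe sets of cluster Zm.15735 fell late: Zm.15735.1.A1_at stood at 18534, 18529 and 17007 at 10 DAP, 12274, 10790.5 and 11289 at 20 DAP and 3874, 3226 and 3306 at 25 DAP (log2 fold -1.73 ± 0.41 SE, adjusted p = 0.003). They were the 2 members that fell from 20 to 25 DAP.

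A group of members fell after 10 DAP and rose again by 25 DAP, and it holds the transfer layer genes. The gene meg2 belongs to a family of small secreted proteins of the transfer layer known for expression from the maternal copy, and bap-1a and bap1-b, which are neighbours in the annotation with no coding gene between them, encode basal layer antifungal proteins. Signals of meg2 (Zm.12666.1.S1_a_at) were 980.1, 4031 and 2087 at 10 DAP, 793, 543 and 388 at 15 DAP, 209.6, 397 and 274 at 20 DAP and 1705, 1217 and 1129.8 at 25 DAP. The arrays at 10 DAP are far apart from each other but all lie above those at 15 DAP, and those at 25 DAP all lie above those at 20 DAP. The fall from 10 to 15 DAP (log2 fold -1.88 ± 0.41 SE, adjusted p = 0.000352) and the rise from 20 to 25 DAP (log2 fold 2.23 ± 0.41 SE, adjusted p = 0.000158) were both called, and its second probe set moved likewise.

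For bap-1a the signals were 469, 1626 and 790.5 at 10 DAP, 486, 282 and 182 at 15 DAP, 97.8, 178 and 127 at 20 DAP and 961, 661 and 555 at 25 DAP. The 10 and 15 DAP arrays overlap, and the call of the fall (log2 fold -1.53 ± 0.54 SE, adjusted p = 0.024) was lost without 10 DAP array 2 (adjusted p 0.176), 15 DAP array 2 (0.0601) or 15 DAP array 3 (0.133). The rise from 20 to 25 DAP (log2 fold 2.44 ± 0.54 SE, adjusted p = 0.00159) was kept in each fit that left out an array. For bap1-b the rise was 2.76 on the log2 scale (adjusted p = 0.00177), and its fall (log2 fold -1.82 ± 0.62 SE, adjusted p = 0.0193) was lost without 10 DAP array 2 or 15 DAP array 3. An unnamed member, Zm.18107.1.S1_a_at, had the same outline, with means of 894, 281, 102 and 533. Its 10 and 15 DAP arrays overlap, and its call at that step was lost without 10 DAP array 2 (adjusted p 0.165) or 15 DAP array 3 (0.0599). Its call from 15 to 20 DAP was lost in 5 of the 6 fits without an array of these ages.

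Over the list of 15 transfer layer probe sets, 4 of them members and 2 left out by name, 7 fell from 10 to 15 DAP (5.36% of all probe sets), 3 fell from 15 to 20 DAP (0.647%), and 9 rose from 20 to 25 DAP (3.96%) with none falling. The median log2 fold of the list over the last step was 2.08, beside -0.00 for all probe sets. The probe sets of meg6, EBE-1, EBE-2, BET1, bap-3a and the invertase INCW2 had no call at any endosperm step. The summed signal of the list was 8692 to 21474 on 10 DAP endosperm arrays, 6559 to 8964 at 15 DAP, 4299 to 5477 at 20 DAP and 10803 to 13318 at 25 DAP. In non-seed tissues the sum was 6009 to 7549 in ear, 5833 to 6527 in stem tip and 4942 to 6241 in stem. It was lower in leaf, root and silk, at 1608 to 3696. The sum in 20 DAP endosperm was thus not above that of ear, stem tip and stem. Over the last step 3 of 9 embryo markers were called higher as well, with the summed signals given above, and their part in these rises was not tested.

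The gene sugary2, which encodes starch synthase IIa, an enzyme that extends chains of amylopectin, shared that outline, whereas bt1, bt2 and ae1 had no step called. Its signals were 6408, 8249.5 and 8969 at 10 DAP and 1280.1, 595 and 1169.6 at 15 DAP, a fall of 8.1-fold (log2 fold -3.02 ± 0.42 SE, adjusted p = 5.84e-07) with no overlap between the ages. At 20 DAP they were 348, 2476 and 614, so that array 2 stood well above the others, and at 25 DAP 4582, 5396 and 4544 (log2 fold 2.58 ± 0.42 SE, adjusted p = 3.23e-05). All 25 DAP arrays exceeded all 20 DAP arrays. The unnamed Zm.13848.1.S1_at fell from 1016, 1147 and 1376 to 109, 89.2 and 106 and stood at 182, 194 and 208 at 25 DAP. Its last rise was not called under median centring, a pseudocount of 32, a floor of 100 or without 20 DAP array 1.

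The small heat shock gene hsp18, whose product holds unfolding proteins in solution, was the only member that rose, fell and rose again. Its endosperm signals were 592, 318 and 506 at 10 DAP, 2682, 2683 and 2495 at 15 DAP, 303, 430.1 and 301 at 20 DAP and 1122, 2758 and 2110.2 at 25 DAP. No 2 neighbouring ages overlap, and the 3 steps were 2.52, -2.95 and 2.46 on the log2 scale (adjusted p = 7.53e-09, 1.06e-08 and 6.76e-08). Of the 6 probe sets with the name of a small heat shock gene, 4 fell from 15 to 20 DAP (0.647% of all probe sets) and 4 rose from 20 to 25 DAP (3.96% of all), with list medians of -1.70 and 1.08. The summed signal of these 6 sets lay at 44136 to 45895 on 15 DAP endosperm arrays and at 17177 to 20506 at 20 DAP. In embryos it lay at 24388 to 30129 at 15 DAP, 11867 to 15319 at 20 DAP and 21854 to 23779 at 25 DAP.

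**Figure D2:**
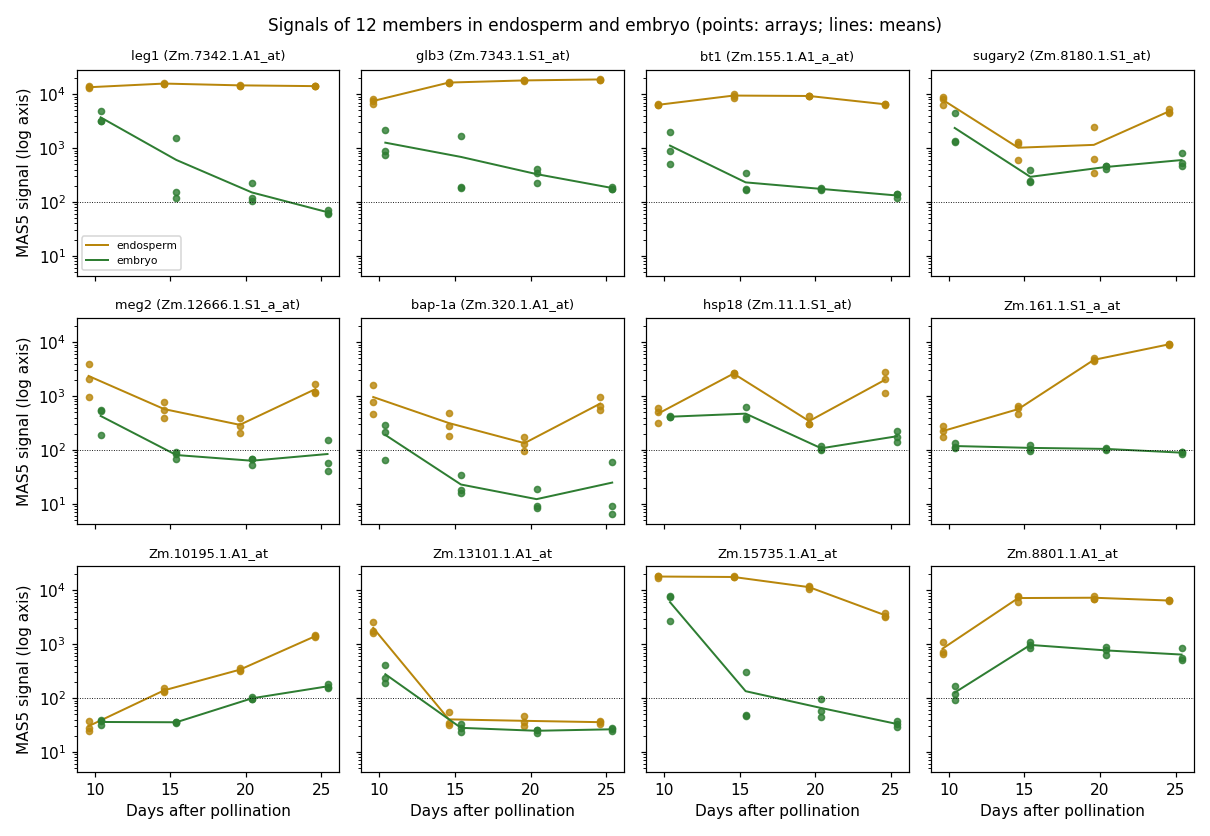
Signals (log axis) of 12 members against days after pollination in endosperm and embryo; points are arrays, lines join the means of 3 arrays, and the dotted line marks a signal of 100. The storage and starch genes leg1, glb3 and bt1 stay on a plateau or rise once, sugary2, meg2 and bap-1a dip at 15 and 20 DAP, hsp18 alternates, and Zm.8801.1.A1_at is the member with the largest rise in embryos.

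Embryos at 10 and 15 DAP were not used to choose the members. In 86 members the highest endosperm mean was also at least 8 times both of these embryo means (those under 100 counted as 100). In 58 members it was not. At 10 DAP the median member stood in embryos at 18.4% of its endosperm mean of the same age (8.70% to 100%, means under 100 counted as 100), and at 15 DAP at 6.12% (0.760% to 100%). A share of 100% arises where both means lie at or under 100, as for Zm.10195.1.A1_at at 10 DAP. The 22 probe sets left out by name, mostly zeins, stood at 17.2% and 4.85%. The lowest share at 10 DAP was that of Zm.6064.1.S1_at, which stood at 748, 206 and 809 in embryos and 8166, 6603 and 5496 in endosperm, and Scl1, Zm.10346.1.S1_a_at and Zm.15490.1.A1_at stood at 9.01%, 9.16% and 9.25%. The lowest at 15 DAP was that of Zm.15735.1.A1_at. Among the high shares at 10 DAP were those of hsp18 (88.0%), whose embryo signals were 406, 406 and 433, and ZmAffx.142.1.A1_at (96.9%), both of which were still low in endosperm at that age. At 10 DAP 110 members had a signal of at least 100 on all 3 embryo arrays, and at 15 DAP 66.

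The embryo arrays of the same age differed in these signals. At 10 DAP array 1 was the highest of the 3 in 128 members (88.9%, against 26.6% of all probe sets), and the median share was 28.2%, 11.98% and 14.8% on arrays 1, 2 and 3. At 15 DAP array 2 was the highest in 118 members (81.9%, against 24.9% of all probe sets), and the median share was 3.74%, 9.35% and 3.77%. These were also the arrays with the highest summed zein signal at each age, 69397 and 57557, and the 22 sets left out were highest on them without exception. With signals under 100 counted as 100, 15 DAP array 2 reached at least 2 times both other arrays in 54 members and at least 4 times in 36, with the largest ratio 49.6, whereas 0.477% of all probe sets reached 2 times. Array 1 at 10 DAP reached 2 times in 44 members and in 0.358% of all probe sets.

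The members split in how they followed 15 DAP array 2. The beta-zein bz15 stood at 167, 4880.3 and 216 on the 3 arrays, hag at 229.6, 4221 and 234, leg1 at 154, 1532 and 121 and glb3 at 188, 1687 and 178, so that array 2 was well above the others. The starch genes bt1 (168, 348 and 176) and sugary2 (239, 398 and 240.0) and the auxin gene yuc (212, 303 and 180.2) were only moderately higher on it. Zm.13985.1.A1_at (103, 92.2 and 88.6) and ZmAffx.750.1.A1_at (194, 179.8 and 152) were not highest there. What part endosperm tissue on the embryos had in these signals was not tested.

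**Figure D3:**
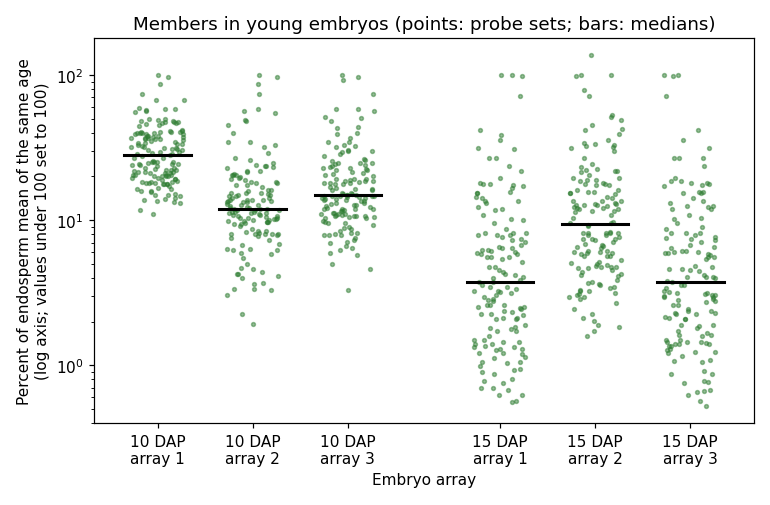
Signal of each member on the 6 young embryo arrays as a percent of its endosperm mean of the same age (log axis, values under 100 set to 100); points are the 144 probe sets and bars are medians. The medians are 28.2%, 11.98% and 14.8% on the 10 DAP arrays and 3.74%, 9.35% and 3.77% on the 15 DAP arrays.

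From 10 to 15 DAP 76 members fell in embryos, beside 1.87% of all probe sets, and 2 rose, beside 3.64%. Their median log2 fold was -1.32, beside -0.00 for all probe sets. In 72 members all 15 DAP arrays lay below all 10 DAP arrays, as in 22.9% of all probe sets. Members had to be low in embryos at 20 and 25 DAP, so the choice itself favours a fall in embryos by 20 DAP. In 132 members the 10 DAP embryo mean lay above the 20 DAP embryo mean. The counts of this step are thus a description. Without the 2 arrays that stood highest, 92 members were called lower and 1 higher, and over the fits that left out a single array the lower calls ranged from 62 to 100. Among the 111 members without a suffix for shared probes or a zein cluster number, 69 were called lower. By the stage of the highest endosperm mean, the lower calls were 29 of 33 members at 10 DAP, 13 of 17 at 15 DAP, 22 of 41 at 20 DAP and 12 of 53 at 25 DAP. Of the 15 zein markers 7 were called lower over this step (1.87% of all probe sets), those of dzs18 and gz27 and the member bz15. The left-out z1 probe sets and gz50 had no call, at log2 folds from -0.09 to -1.48. Since 13 of the 15 passed the same limits as the members and 1 is a member, the 2 sets are not independent. What part zein signal had in this step was not tested.

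The largest falls in embryos were in unnamed probe sets. Zm.15735.1.A1_at stood at 7515, 2723 and 7841 at 10 DAP and 49.5, 307 and 47.0 at 15 DAP (log2 fold -5.93 ± 0.41 SE, adjusted p = 1.29e-12), at least 37.4-fold when signals under 100 count as 100. Its endosperm mean was 18023 and 17683 at these ages, and the second probe set of the cluster fell in embryos likewise (-5.41). Zm.4771.1.S1_at fell from 4419, 2590.5 and 3556 to 60.9, 448 and 62.7 (log2 fold -4.85 ± 0.42 SE, adjusted p = 2.2e-10). Neither has arrays that overlap between the ages.

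Among the named members, leg1 fell in embryos from 4839, 3150.0 and 3141 to 154, 1532 and 121 (log2 fold -3.57 ± 0.47 SE, adjusted p = 8.29e-07), yuc from 1955, 1142 and 1926 to 212, 303 and 180.2 (log2 fold -2.85 ± 0.19 SE, adjusted p = 9.11e-13), and sugary2 from 4389.9, 1376 and 1311 to 239, 398 and 240.0 (log2 fold -2.81 ± 0.42 SE, adjusted p = 7.1e-06). For these 3 genes the ages do not overlap. The transcription factor nac4 fell by 2.45, bt1 by 2.12 and Scl1 by 1.85 on the log2 scale, all called. The calls of glb3 (-1.55, adjusted p = 0.00854), sh1 (-1.51, 0.0278), bt2 (-1.17, 0.00124) and bz15 (-2.43, 0.00402) depended on single arrays: glb3, sh1 and bt2 were not called without 10 DAP array 1, and none of the 4 was called without 15 DAP array 1 or array 3. In a limma fit of only the embryo arrays at 10 and 15 DAP, bz15 (adjusted p 0.159), glb3 (0.199), bt2 (0.0828) and hag (0.0631) were not called. Both meg2 probe sets fell (-2.27 and -2.22), as did bap-1a and bap1-b, the last 2 to signals under 50 on every 15 DAP array. With signals under 100 counted as 100, the folds of bap-1a and bap1-b were under 2 and not called.

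The members that rose in embryos were Zm.8801.1.A1_at and Zm.12883.1.A1_at. Zm.8801.1.A1_at stood at 166, 92.5 and 121 at 10 DAP and 970.4, 1079.9 and 859 at 15 DAP (log2 fold 2.97 ± 0.29 SE, adjusted p = 3.89e-09), and in endosperm it rose over the same days from 1096, 732 and 662 to 6032, 7599.6 and 7935. On this probe set array 2 was only slightly above the other 15 DAP embryo arrays. Zm.12883.1.A1_at stood at 96.5, 72.2 and 102 and 347, 226 and 212 in embryos (log2 fold 1.52 ± 0.52 SE, adjusted p = 0.0317), a call that was kept only without 15 DAP array 3 among the fits that left out a single array.

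Over the same 5 days the 2 seed tissues moved apart. The change in embryo minus the change in endosperm was called lower in 97 members, beside 5.69% of all probe sets, and higher in 3, beside 5.65%, with a median of -2.16 on the log2 scale for the members and -0.09 for all probe sets. Endosperm signals enter this difference and also entered the choice of members, so the count is a description. Of the 76 members that fell in embryos, 4 rose in endosperm, 14 fell there too and 58 had no call there. The 4 that moved in opposite directions were glb3, sh1, Zm.10346.3.A1_at and Zm.13565.1.A1_a_at, the last 2 named after their values were seen. All embryo signals of Zm.10346.3.A1_at lay under 100, and with signals under 100 counted as 100 the embryo fold of Zm.13565.1.A1_a_at was -0.72 on the log2 scale, under the fold limit. The transfer layer genes meg2, bap-1a and bap1-b and sugary2 fell in both tissues, with no difference called between them as deposited (0.21 ± 0.59 SE for sugary2, adjusted p = 0.847). In contrast, ZmAffx.142.1.A1_at rose in endosperm and stood at 51.5, 53.3 and 44.6 and 48.9, 53.1 and 43.0 in embryos at 10 and 15 DAP, a difference of -4.08 (adjusted p = 2e-12).

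**Figure D4:**
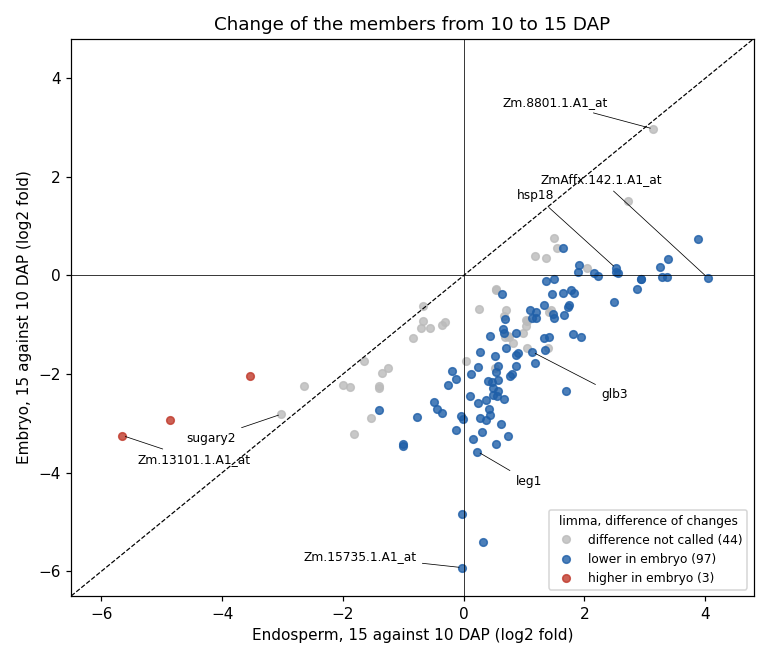
Log2 fold from 10 to 15 DAP in embryo against that in endosperm for the 144 members, coloured by the limma call of the difference; the dashed line marks equal change. Most members lie below the line (97 called lower in embryo), 3 lie above it with a call, and Zm.8801.1.A1_at, which rose in both tissues, lies close to it.

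At the limit of the choice, the last members inside were ZmAffx.762.1.A1_at, ae1 and ZmAffx.178.1.S1_at, with ratios of 8.35, 8.17 and 8.17. Just outside stood Zm.8925.1.A1_at at 7.95, Zm.13985.1.S1_at at 7.77 and Zm.12666.4.S1_x_at at 7.69, the last in the same cluster as meg2 and Zm.13985.1.S1_at in that of the member Zm.13985.1.A1_at. With a ratio of 4 in place of 8, 280 probe sets passed, and with 16, 101.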

How the data were processed

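RNA of 14 tissues of the maize inbred line B73, with 3 biological replicates each, was measured on Affymetrix maize arrays after labelling with a 3′ IVT kit. What separated the replicates (plants, plots or days) is not given in the sources used here, so the p-values measure the spread between these samples. The fit takes 1 spread per probe set over all 14 tissues, although the tissues were unequal. The median SD of the members (log2, signals under 100 counted as 100) was 0.53 and 0.29 in embryos at 10 and 15 DAP. In endosperm it lay between 0.05 and 0.15. The p-values of the embryo step can thus be too small. The authors deposited 1 table of MAS5 signals, a linear intensity per probe set and array, scaled by them, and these values were used as deposited. The MAS5 version, target signal and presence calls were not used here. The number of arrays limits the precision.

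Members were found on the tissue means. Gene names came from the platform annotation, updated by gene identifier through the RefSeq table of the assembly Zm-B73-REFERENCE-NAM-5.0, and from a worksheet of the study for 4 members. Names to be left out were matched to symbols and to RefSeq synonyms, because sh2, wx1, o2, fie1 and the betl genes stand only among the synonyms. Log2 signals of all 42 arrays were fitted with limma 3.58.1 in R 4.3.3 (a mean per tissue, eBayes with an intensity trend), and p-values were adjusted by Benjamini-Hochberg over 17621 probe sets. The steps tested were 15 against 10 DAP in embryo and endosperm, 20 against 15 and 25 against 20 DAP in endosperm, and the difference between the first 2. The script was tested on simulated data. Means, counts and plots were made in Python 3.11.15 (pandas 2.3.3, numpy 2.4.6, matplotlib 3.10.9).

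Named were the members with the largest ratios among those with and without a gene symbol, up to 4 per gene list, step and direction (largest fold with arrays that do not overlap), extreme share in young embryos and stage of the highest mean, and those beside the limit. Other probe sets of the large clusters and of pdc2 were named after their values were seen. Members and gene lists were chosen with earlier results of these data known. Other scalings, a pseudocount of 32, filters, floors, limits, left-out arrays and a replicate block were tried. Columns of the study's own gene pair results were not used.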

Additional observations from a re-analysis of the deposited data

Results flagged for a closer look

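Over the days from 10 to 15 DAP the change in embryo differed from that in endosperm by the limma test of the difference, and this singled out the following results. The change was lower in embryo in 97 members (5.69% of all probe sets) and higher in 3 (5.65%). Endosperm signals and those of older embryos entered the choice of members, so these counts are a description.

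Among the named probe sets, the difference (embryo minus endosperm, log2) was -5.90 for Zm.15735.1.A1_at and -5.72 for Zm.15735.1.S1_at, which fell in embryo with no call in endosperm at that step. It was -4.81 for Zm.4771.1.S1_at, with the same outline. For ZmAffx.142.1.A1_at it was -4.08, from a rise in endosperm alone. For the globulin glb3 it was -2.69 and for the sucrose synthase sh1 -2.85, both of which were called lower in embryo and higher in endosperm, with the dependence of these calls on single arrays and on the scaling given above. The 3 members with a higher change in embryo were Zm.13101.1.A1_at at 2.41, Zm.18272.1.A1_at at 1.93 and Zm.13848.1.S1_at at 1.49. All 3 fell in both tissues, and they fell further in endosperm. With signals under 100 counted as 100, the log2 folds of Zm.18272.1.A1_at and Zm.13848.1.S1_at in embryo were -0.66 and -0.80, under the fold limit.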

How the results depend on the processing

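Of 97 called results for named probe sets, 71 kept their call and none turned its direction under the alternatives run. Among the other results, with signals under 100 counted as 100 the difference between embryo and endosperm changed sign for several members, among them ZmAffx.721.1.S1_at (-2.26, called, to 0.23, named after its values were seen), bap1-b (-1.39, not called, to 1.19) and bap-1a (-1.35, not called, to 0.65), whose 15 DAP embryo signals all lay under 100.

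The 2 members higher in embryos became 4 without a fold limit, 1 to 2 with single arrays left out, and 1 without 10 DAP array 1 and 15 DAP array 2. The 48 members higher in endosperm at 15 DAP became 31 with hybridization-control centring. From 15 to 20 DAP the 4 higher became 9 without a fold limit, and the 3 lower became 5 with a floor of 100, without a fold limit or with only the arrays compared. From 20 to 25 DAP the 2 lower became 4 with median centring, 10 without a fold limit, and 2 to 4 with single arrays left out (4 without 20 DAP array 2).

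A ratio of 4 gave 280 members and a median share in 15 DAP embryos of 14.1%, with 48, 101 and 84 members highest at 15, 20 and 25 DAP. A ratio of 16 left 16 and 10 highest at 10 and 15 DAP, and a floor of 200 left 21 at 10 DAP. Median scaling put 46 at 15 DAP and 29 at 25 DAP, and hybridization-control scaling 40, 12 and 30 at 15, 20 and 25 DAP. The causes were not tested, beyond the ratio and floor, which by construction change the members.

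With the replicate number as a block, the lower and higher calls were 76 and 2 in embryos, 14 and 47 from 10 to 15 DAP in endosperm, 3 and 4, then 2 and 9 at the later steps, and 96 and 3 for the difference. Same-numbered embryo arrays at 10 and 15 DAP did not deviate together (r = -0.41, -0.44 and -0.07 over probe sets), and the numbers were not taken as pairs. Whether same-numbered embryo and endosperm arrays of the same age deviate together was not examined.

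MAS5 signals under 100 have little resolution: 43 members lay under 100 on all 15 DAP embryo arrays, and with a floor of 100 the lower calls in embryos were 57. Most members have no gene name, and 32 have probes that may read related genes.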
